A study of Mus musculus with 15 samples.

Results

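MicroRNA hairpins were compared between sorted Sox10 cells of wild-type (WT) mouse embryos at embryonic day (E) 9.5 and whole WT embryos at E7.5. The 231 hairpins described here each reached 10 normalized counts in 2 or more of these 4 libraries, out of 299 hairpins tested across the series and 1226 in the table. The 2 E9.5 WT samples were neural crest cells sorted by flow cytometry for Sox10, a transcription factor of migrating neural crest. The sources used here do not give how Sox10 was marked for sorting. The 2 E7.5 WT samples were whole embryos, which at that stage hold epiblast, early germ layers and extraembryonic tissue. All samples carried a C57BL/6 background. The series also holds 3 E8.5 WT samples, sorted from the Wnt1-Cre lineage of dorsal neural tube and neural crest, and samples with a knockout (KO) of miR-302, of which 2 E9.5 KO samples of sorted Sox10 cells and 2 E7.5 KO whole embryos serve as a second stage comparison. Stage and cell source change together, and the number that opens the WT sample codes differs between the stages too, so that their parts in a difference cannot be told apart. No label states that the samples of a group came from separate litters. The p-values therefore cover just the spread among these libraries, some of which may be technical. In bulk samples, fewer cells of a type and less RNA per cell cannot be told apart.

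MicroRNAs are short RNAs cut from hairpin precursors, and bases 2 to 8 of the mature strand, the seed, pair with target messenger RNAs, so that miRNAs with 1 seed can act on overlapping targets. Several families are landmarks of early development: the miR-290-295 cluster and the cluster of miR-302 and miR-367 mark pluripotent cells and the early embryo, the miR-200 family marks epithelia, and miR-199a and miR-214 are known from mesenchyme. Neural crest cells leave an epithelium, migrate, and later form peripheral neurons, glia, pigment cells and facial skeleton.

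The mature sequences below, as listed by RefSeq for GRCm38.p6 with the seed in capitals, show 3 sets of related seeds among lower hairpins and their relatives. Sequences of other called hairpins stand beside their values. The first set belongs to hairpins that were lower in E9.5 Sox10 cells. It holds the hexamer AAGUGC at base 2, except in miR-302c-3p, where it starts at base 1.
miR-302b-3p: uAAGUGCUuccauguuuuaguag
miR-302d-3p: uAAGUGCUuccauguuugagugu
miR-302c-3p: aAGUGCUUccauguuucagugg
miR-291a-3p: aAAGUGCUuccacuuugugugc
miR-294-3p: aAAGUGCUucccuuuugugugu
miR-295-3p: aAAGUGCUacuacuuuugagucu
The second set carries the same hexamer 1 base further along, at base 3, and its hairpins had log2 fold changes above 0.
miR-17-5p: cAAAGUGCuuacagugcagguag
miR-20a-5p: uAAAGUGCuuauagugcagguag
miR-106a-5p: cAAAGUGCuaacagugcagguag
miR-93-5p: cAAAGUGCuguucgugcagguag
The third set shows 1 seed shared by miR-367, which was lower in E9.5 Sox10 cells, and by miR-92a and miR-25, which did not pass the test.
miR-367-3p: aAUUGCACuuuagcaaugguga
miR-92a-3p: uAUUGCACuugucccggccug
miR-25-3p: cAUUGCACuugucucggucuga

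Values are normalized counts per hairpin, with the 5' and 3' arms together and no correction for length. Sums given for a family, cluster or marker list cover all of its hairpins in the table, while its calls and medians cover those among the 231. The E9.5 WT libraries held 323389 and 136665 reads, and the E7.5 WT libraries 133638 and 190416 reads, so that 1 read was worth 0.147 to 0.520 normalized counts. The 231 hairpins held 98.6% to 99.0% of the reads in each of the 4 libraries. The E9.5 pair of libraries resembled each other more than the E7.5 pair did: Spearman's rho over the 231 hairpins was 0.953 between the E9.5 libraries, 0.805 between the E7.5 libraries and 0.490 to 0.558 across the groups, as a description over hairpins that share libraries. Of the 65 hairpins with a mean of at least 100 at E9.5, 0 differed by over 4-fold between the replicates. Of the 93 with such a mean at E7.5, 17 did, and all 17 were higher in replicate 1. E7.5 replicate 1 had the higher let-7, miR-181, mir-10b, mir-196b, mir-21a and mir-143 values, and replicate 2 the higher miR-302 values, so results that rest on either are given without it as well.

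At an adjusted p under 0.05 (limma, Benjamini-Hochberg over 299 hairpins), 8 of the 231 hairpins (3.46%) were higher in E9.5 Sox10 cells, where 3.01% of all tested hairpins were. In the other direction 49 of 231 (21.2%) were lower, where 17.7% of all tested hairpins were. Both shares lay near those of all tested hairpins, most of which are the same hairpins, and 174 of the 231 did not pass. A hairpin that entered only through its E7.5 values had to differ: 41 hairpins were under 10 in both E9.5 libraries, 31 of them called lower, and 7 were under 10 in both E7.5 libraries, 1 of them called higher. Among the 183 with 10 or more in a library of each group, 7 were higher and 18 lower. Nearest to the limit, mir-539 and mir-3475 entered with a second-highest value of 10.3, and mir-139 (9.98) and mir-341 (9.88) stayed out. The median log2 fold change was -0.75 over the 231 hairpins and -0.65 over all 299, and that of the 299 moved to -0.21 with TMM scaling and to -0.11 with library-sum scaling. TMM scaling called 16 hairpins higher and 44 lower among the 299, against 9 and 53 with the deposited scaling.

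**Figure D1:**
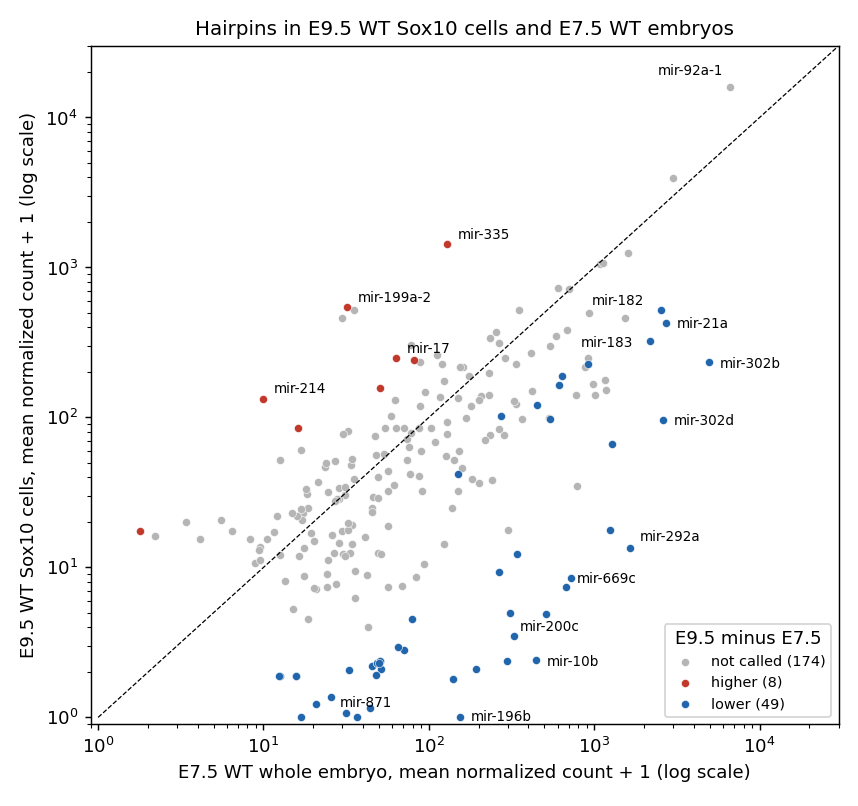
Mean normalized count + 1 of the 231 hairpins in E9.5 WT Sox10 cells (vertical) against E7.5 WT whole embryos (horizontal), both on log scales, with the line of equal values dashed. Red points are the 8 hairpins called higher, blue points the 49 called lower and grey points the 174 that did not pass; mir-335 stands highest among the red points, and mir-302b and mir-302d lie far to the right among the blue ones.

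Both pluripotency clusters were lower throughout. All 7 hairpins of the miR-290-295 cluster, at chr7:3218626-3220841 of GRCm38 on the plus strand, were lower in E9.5 Sox10 cells, with log2 fold changes of -6.97 to -5.07. The hairpin mir-292a had 17.2 and 7.80 normalized counts in E9.5 Sox10 cells, against 1194 and 2106 in E7.5 embryos (log2 fold change -6.97 ± 0.82 (SE), adjusted p = 2.49e-05). Both E9.5 values lay far below both E7.5 values. Its neighbours were alike: mir-294 had 2.50 and 5.30 in E9.5 Sox10 cells, against 253 and 768 in E7.5 embryos, and mir-295 had 7.64 and 7.49, against 481 and 956. The cluster summed to 49.7 and 36.2 normalized counts at E9.5, against 3053 and 6144 at E7.5. All but mir-292a and mir-293 were under 10 in both E9.5 libraries, so they entered only through their E7.5 values, which largely set their direction. The 7 calls held with edgeR. On leaving out 1 WT library, the median log2 fold change of the cluster stayed between -6.97 and -5.76.

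All 5 hairpins of the miR-302 cluster, which includes miR-367, were also lower, by -4.54 to -4.11 on the log2 scale. The cluster lies at chr3:127545228-127545807 on the plus strand, inside an intron of Larp7, a gene of the minus strand. The hairpin mir-302b had 212 and 253 normalized counts in E9.5 Sox10 cells, against 2154 and 7776 in E7.5 embryos (log2 fold change -4.14 ± 1.12 (SE), adjusted p = 0.0162). For mir-302d the values were 70.8 and 121 at E9.5, against 1096 and 4102 at E7.5 (-4.50 ± 0.80 (SE) with an adjusted p of 0.000701). The least abundant of them, mir-367, had 1.76 and 1.87 at E9.5, against 41.1 and 98.8 at E7.5, so it too entered on its E7.5 values. The groups did not overlap, but the E7.5 libraries lay apart, and the cluster summed to 339.9 and 468 at E9.5, against 4042 and 14324 at E7.5. Without E7.5 WT replicate 2, the library with the high value, 1 of the 5 kept its call, and without either E9.5 library 3 of the 5 did. The clusters also differed in what was left of them: mir-302b still held 0.445% and 0.593% of all E9.5 reads, against 3.10% and 11.2% at E7.5, and ranked 31 by mean count at E9.5, against 2 at E7.5.

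Grouped by seed, the 5 arms above with AAGUGCU as bases 2 to 8 came from hairpins that were all lower. These hairpins summed to 293 and 388 normalized counts at E9.5, against 4196 and 13978 at E7.5. All sums in this paragraph are of whole hairpins with both arms together, so they include reads of arms without the seed. Hairpins were grouped by the arms in the table used here, which held at least 1 arm for 206 of the 231 hairpins. It did not hold, for example, the 3' arms of mir-302a and mir-292a. The 6-letter motif AAGUGC stood at base 2 of a listed mature arm in 7 hairpins, all 7 lower (-6.93 to -4.14), and at base 3 in 6 of them (mir-17, mir-20a, mir-20b, mir-93, mir-106a and mir-106b). Those 6 all had log2 fold changes above 0 (0.57 to 2.31), with 1 call, mir-17, and summed to 1452 and 1311 at E9.5, against 449.7 and 827 at E7.5. At E9.5 the sum for base 3 was thus above that for base 2, and at E7.5 it was below it. Among 1679 RefSeq mouse arms outside chromosome 18, 0.476% carry AAGUGC at base 2 and 0.476% at base 3, read on the RNA strand. The members of either set share genomic clusters and are not independent.

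A second group of early-embryo hairpins, those in the introns of Sfmbt2 on chromosome 2, was almost gone from E9.5 Sox10 cells. This repeated cluster is known for expression in trophoblast and early embryos. All 13 hairpins of the list were lower, with log2 fold changes of -6.73 to -2.90 and a median of -4.54. All but mir-669c were under 10 in both E9.5 libraries, so they entered only through their E7.5 values, which largely set their direction. For mir-669c the values were 10.7 and 2.18 at E9.5, against 850.0 and 492 at E7.5 (log2 fold change -6.73 ± 1.24 (SE), adjusted p = 0.000978). For mir-467e they were 1.91 and 3.12 at E9.5, against 321 and 331 at E7.5 (-6.56 ± 0.87 (SE) with an adjusted p of 8.10e-05), and here the E7.5 libraries were close together. All 82 together summed to 29.1 and 15.6 at E9.5, against 1735 and 1531 at E7.5. Members are near-copies of each other and share reads, so the 13 are fewer than 13 measurements: mir-297a-3 and mir-297a-4 had the same values in all 4 libraries. With edgeR 9 of the 13 passed, and the 4 that did not, all mir-297 copies, had 12 reads each over the E9.5 libraries.

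Of the 37 hairpins on chromosome X 8 were lower, a share near the 21.2% of all 231. They are named after their values were seen: mir-465a, mir-465b-1, mir-465b-2, mir-465c-1, mir-465c-2, mir-470, mir-672 and mir-871. The mir-871 hairpin had 0 reads in both E9.5 libraries, against 36.4 and 35.5 normalized counts at E7.5, which is at least 119.7-fold lower when 3 reads over the group are taken as the floor. Likewise mir-470 had 0 reads at E9.5, against 20.8 and 11.0 normalized counts at E7.5, at least 50.2-fold lower. The 5 mir-465 copies, at chrX:66825955-66839125 on the minus strand, lay between 0.294 and 1.87 at E9.5, against 24.4 to 60.4 at E7.5, and pairs of them are identical in the WT libraries. These low-level hairpins are at the bottom of the plot of means.

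Epithelial miRNAs were also lower. The miR-200 family, which represses the Zeb factors of the epithelial to mesenchymal transition, had 3 of its 4 hairpins among the 231 called, all lower, and mir-205, the other one on the epithelial list, did not pass. The mature sequences are shown because miR-200b and miR-200c have 1 seed and miR-200a another.
miR-200c-3p: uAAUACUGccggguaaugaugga
miR-200b-3p: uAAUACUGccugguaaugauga
miR-200a-3p: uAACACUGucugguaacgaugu
The hairpin mir-200c had 3.23 and 4.68 normalized counts in E9.5 Sox10 cells, against 214 and 406 in E7.5 embryos (log2 fold change -5.92 ± 0.56 (SE), adjusted p = 1.75e-05). Over pooled reads, 37 at E9.5 against 1521 at E7.5, this is 88.4-fold lower (95% interval 63.8 to 126, counting error only). For mir-200b the values were 13.4 and 9.05 at E9.5, against 243 and 441 at E7.5 (-4.77 ± 1.35 (SE) with an adjusted p of 0.0210). For mir-200a they were 1.47 and 0.936 at E9.5, against 24.4 and 64.8 at E7.5 (-4.23 ± 0.88 (SE) with an adjusted p of 0.00271). All E9.5 values lay below all E7.5 values. The mir-200b call was lost under 7 alternatives while its log2 fold change stayed below 0 in each. The other hairpin of the family, mir-429, had 3.53 and 2.50 at E9.5, against 21.8 and 62.2 at E7.5, with an adjusted p of 0.132. The list summed to 26.9 and 29.0 at E9.5, against 544 and 1026 at E7.5.

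The cluster of miR-183, miR-96 and miR-182 on chromosome 6, known from sensory organs and also abundant in stem cells, was reduced but not lost. The hairpin mir-183 had 457 and 185 normalized counts in E9.5 Sox10 cells, against 1831 and 2502 in E7.5 embryos (log2 fold change -2.88 ± 0.50 (SE), adjusted p = 0.000626). For mir-182 the values were 713 and 326 at E9.5, against 2288 and 2767 at E7.5 (-2.38 ± 0.52 (SE) with an adjusted p of 0.00342), and edgeR gave an adjusted p of 0.0660. The E9.5 libraries lay apart here, with replicate 1 above replicate 2. The remaining hairpin, mir-96, had 8.08 and 7.80 at E9.5, against 18.2 and 64.8 at E7.5, and an adjusted p of 0.362.

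Of the Hox-cluster miRNAs, which mark trunk rather than head position, 2 of 3 were lower and near 0. Their sequences show 2 unrelated seeds.
miR-10b-5p: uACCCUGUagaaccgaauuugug
miR-196b-5p: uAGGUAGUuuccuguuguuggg
In E9.5 Sox10 cells mir-10b, which lies in an intron of Hoxd3 and Hoxd4, had 2.50 and 0.312 normalized counts, against 797 and 84.5 in E7.5 embryos (log2 fold change -6.93 ± 1.37 (SE), adjusted p = 0.00177). The mir-196b hairpin, annotated within an exon of Hoxa9, had 0 reads in both E9.5 libraries, against 274 and 31.8 normalized counts at E7.5. That is at least 440.0-fold lower with 3 reads over the group as the floor (fitted -6.57 ± 0.97 (SE) with an adjusted p of 0.000205). The E7.5 libraries differed from each other by over 4-fold in both hairpins, and both calls passed under all 22 alternatives. Against them, mir-10a had 5.14 and 21.5 at E9.5, against 123 and 123 at E7.5, and did not pass (adjusted p = 0.132), while with edgeR all 3 were lower.

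**Figure D2:**
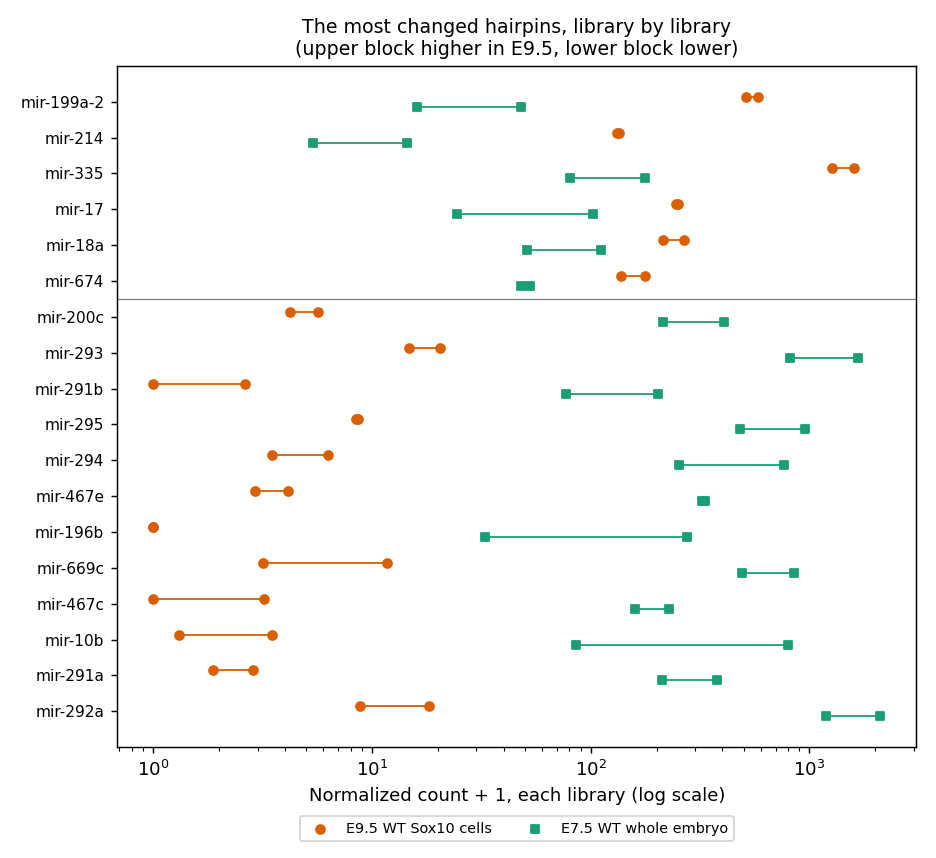
Normalized count + 1 in each library, on a log scale, for 6 hairpins called higher and the 12 lowest of those called lower, each with a mean of at least 100 in the higher group; orange circles are the 2 E9.5 WT libraries, green squares the 2 E7.5 WT libraries, and a line joins the replicates. The groups do not overlap in any row, the E9.5 values of mir-196b are both 0, and the E7.5 values of mir-10b and mir-196b lie widest apart.

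In the Dlk1-Dio3 imprinted region of chromosome 12, which holds a large miRNA cluster read from the maternal copy, the differences were smaller. Of the 26 hairpins of the miR-379/410 cluster, at chr12:109709060-109743795 on the plus strand, all were below 0 (-3.04 to -0.57, median -1.69), and 6 passed the test: mir-379, mir-543, mir-382, mir-409, mir-369 and mir-411. With edgeR 3 of the 26 passed, and the share of 6 in 26 lay near that of all 231 hairpins. Without E7.5 WT replicate 2 and without E9.5 WT replicate 2 the count was 1 each, without E9.5 WT replicate 1 it was 4 and without E7.5 WT replicate 1 it was 8. With TMM and with library-sum scaling mir-543 alone of the 6 kept its call. The strongest of these, mir-543, had 111 and 83.3 normalized counts at E9.5, against 477 and 603 at E7.5 (log2 fold change -2.47 ± 0.50 (SE), adjusted p = 0.00220). For mir-409 the values were 237 and 213 at E9.5, against 682 and 1138 at E7.5 (-1.97 ± 0.46 (SE) with an adjusted p of 0.00616). The cluster stayed well measured at E9.5, with sums of 2102 and 1613, against 4671 and 8650.0 at E7.5. Of the 9 hairpins on the Rtl1-antisense and Meg3 side, 1 was lower, mir-434, with 115 and 87.7 at E9.5, against 216 and 327 at E7.5 (-1.40 ± 0.46 (SE) with an adjusted p of 0.0469), and it passed under 8 of 22 alternatives. With TMM scaling the median of the miR-379/410 list was -1.16, and that of the 231 hairpins -0.24.

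The oncogenic mir-21a, within an exon of Vmp1, was lower with 420.4 and 434 normalized counts at E9.5, against 4384 and 1012 at E7.5 (log2 fold change -2.30 ± 0.64 (SE), adjusted p = 0.0197). It lost its call under 8 alternatives, and without E7.5 WT replicate 1 the log2 fold change was -1.24 with an adjusted p of 0.254. The immune-associated mir-155, named after its values were seen, had 4.56 and 2.50 at E9.5, against 125 and 30.4 at E7.5 (-3.84 ± 1.12 (SE) with an adjusted p of 0.0249), and lost its call under 5, among them leaving out E7.5 WT replicate 1 (-2.83).

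The let-7 family, whose mature forms accumulate as cells differentiate, was measured at different levels in the E7.5 libraries. Of its 12 hairpins 0 passed with limma (3 had an unadjusted p under 0.05) and 2 were lower with edgeR, while all 12 lay below 0 (median -2.29). The family summed to 831 and 2030.0 normalized counts in E9.5 Sox10 cells, against 13098 and 3271 in E7.5 embryos. Without E7.5 WT replicate 1 the median was -1.32, and without replicate 2 it was -3.28. The E9.5 replicates themselves differed, replicate 2 having the higher sum. A single hairpin with a wider gap was mir-146b, named after its values were seen, which had 36.9 and 30.6 normalized counts at E9.5, against 1507 and 58.6 at E7.5 (adjusted p = 0.156). With edgeR it was lower (adjusted p = 0.00383).

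Fewer hairpins were higher in E9.5 Sox10 cells, and the largest differences were in mesenchymal miRNAs. The sequences follow, as the 3' arms of miR-199a and miR-199b are the same and reads from the 3 miR-199 hairpins therefore cannot be assigned to one of them.
miR-199a-3p: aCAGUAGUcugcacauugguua
miR-199b-3p: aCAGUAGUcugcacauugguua
miR-199a-5p: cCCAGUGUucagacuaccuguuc
miR-214-3p: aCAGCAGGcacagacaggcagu
miR-335-5p: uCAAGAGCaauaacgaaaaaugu
The hairpins mir-199a-2 (chr1:162217814-162217923) and mir-214 (chr1:162223368-162223477), both on the plus strand, lie in an exon of the noncoding RNA Dnm3os, opposite an intron of Dnm3. In E9.5 Sox10 cells mir-199a-2 had 578 and 509.7 normalized counts, against 46.8 and 15.005 in E7.5 embryos (log2 fold change 4.30 ± 1.02 (SE), adjusted p = 0.00652). For mir-214 the values were 133 and 131 at E9.5, against 13.5 and 4.39 at E7.5 (3.91 ± 1.08 (SE) with an adjusted p of 0.0183). The E9.5 libraries were nearly equal and the spread came from the E7.5 ones. The copies mir-199a-1 and mir-199b had log2 fold changes of 4.12 and 4.15 with adjusted p-values of 0.0781 and 0.0781, and mir-140, a cartilage miRNA, had 50.8 and 49.0 at E9.5, against 27.03 and 24.9 at E7.5 (adjusted p = 0.302). Together the 5 hairpins of the list summed to 1779 and 1630.5 at E9.5, against 184 and 73.9 at E7.5. Of 22 alternatives mir-199a-2 passed under 20 and mir-214 under 19, and the calls were lost on leaving out 1 WT library, of E9.5 as well as of E7.5. Without E7.5 WT replicate 2 the log2 fold changes were 3.51 for mir-199a-2 and 3.20 for mir-214. Without E9.5 WT replicate 1 they were 4.21 and 3.90. With edgeR 4 of the 5 were higher.

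The most robust of the higher hairpins was mir-335, which lies in an intron of the imprinted gene Mest at chr6:30741299-30741396. It had 1604 and 1262 normalized counts in E9.5 Sox10 cells, against 79.5 and 176 in E7.5 embryos (log2 fold change 3.57 ± 0.74 (SE), adjusted p = 0.00270). It passed under all 22 alternatives, which no other higher hairpin did. Its share of reads was 3.38% and 2.96% at E9.5, against 0.114% and 0.253% at E7.5, which made it the third most abundant hairpin at E9.5 and number 84 at E7.5.

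In the miR-17-92 cluster, a proliferation-associated transcript at chr14:115043671-115044506 in Mir17hg, all 6 hairpins lay above 0 (median 1.95) and 2 passed. The hairpin mir-17 had 251 and 243 normalized counts at E9.5, against 23.4 and 101 at E7.5 (log2 fold change 2.31 ± 0.67 (SE), adjusted p = 0.0232). For mir-18a the values were 267 and 212 at E9.5, against 49.9 and 110.2 at E7.5 (1.67 ± 0.55 (SE) with an adjusted p of 0.0465). Both calls were fragile: mir-17 lost it under 6 alternatives and mir-18a under 10, and without E7.5 WT replicate 1 mir-17 had a log2 fold change of 1.28 with an adjusted p of 0.265. The paralogous miR-106a-363 and miR-106b-25 clusters had 0 of 9 hairpins called, all 9 above 0 with a median of 0.95 (2 had an unadjusted p under 0.05, and edgeR called 0). In the miR-17-92 cluster edgeR called 4 higher.

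The other 3 higher hairpins were mir-149, mir-674 and mir-3475, of which mir-149 and mir-3475 are named after their values were seen. In an intron of Gpc1, mir-149 had 91.1 and 76.1 normalized counts at E9.5, against 16.6 and 13.5 at E7.5 (log2 fold change 2.40 ± 0.65 (SE), adjusted p = 0.0162). For mir-674 the values were 177 and 137 at E9.5, against 52.0 and 47.2 at E7.5 (1.63 ± 0.55 (SE) with an adjusted p of 0.0487), with an adjusted p of 0.0610 under a replicate block. Their E7.5 values were close together, unlike those of mir-199a-2 and mir-17. The rare mir-3475 had 187 reads at E9.5 against 3 at E7.5, or 22.6 and 10.3 normalized counts, against 1.56 and 0 (adjusted p = 0.0388). The call was lost under 3 alternatives for mir-149, under 10 for mir-674 and under 5 for mir-3475.

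**Figure D3:**
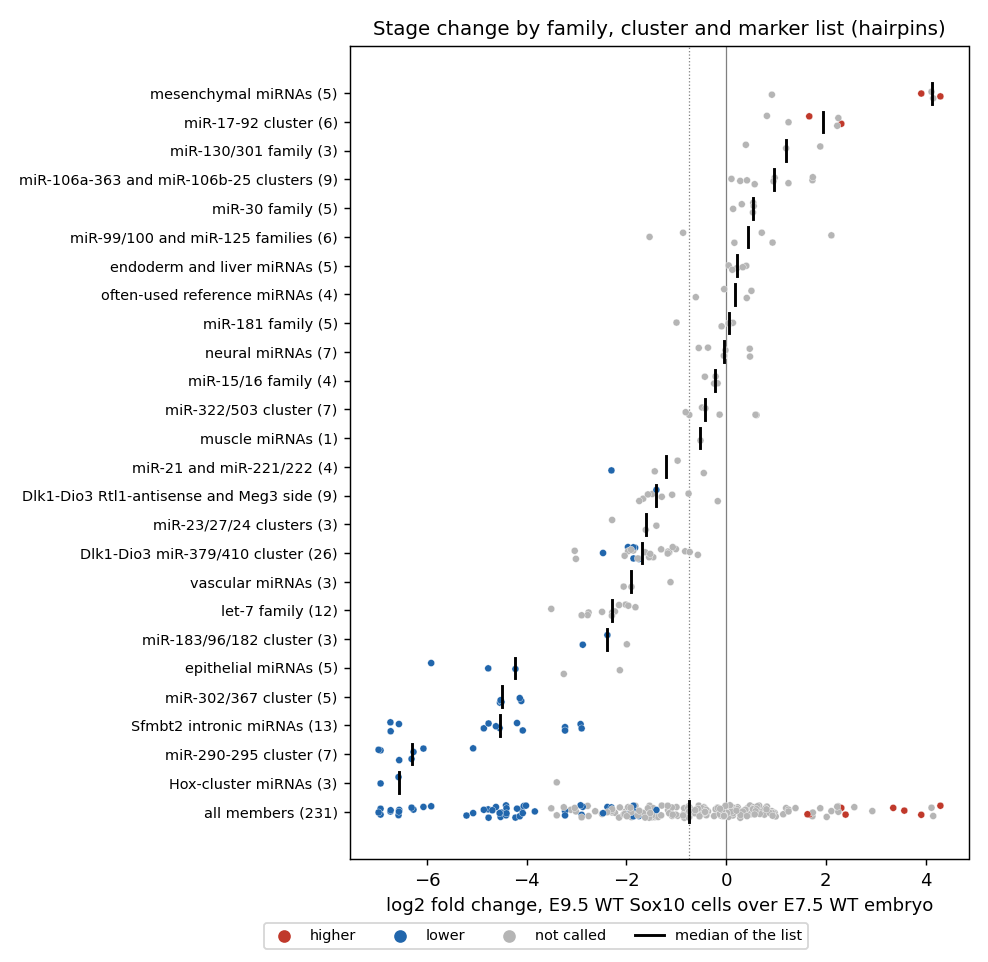
Log2 fold change of each hairpin, E9.5 WT Sox10 cells over E7.5 WT embryos, by list, with the number of hairpins in brackets; red points were called higher, blue points lower and grey points did not pass, black bars are list medians and the dotted line is the median of the 231 hairpins, -0.75. The miR-290-295, miR-302 and Sfmbt2 lists are blue throughout, and the mesenchymal list has the highest median, 4.12. Most miR-290-295 and Sfmbt2 hairpins entered only through their E7.5 values.

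The makeup of the miRNA pool differed between the groups. The mir-92a-1 hairpin, of the miR-17-92 cluster, had the highest mean in both groups, although mir-302b was above it in E7.5 replicate 2. It took 37.5% (95% exact binomial interval 37.3 to 37.6) and 32.8% (32.6 to 33.1) of reads at E9.5, against 9.11% (8.96 to 9.26) and 9.96% (9.83 to 10.1) at E7.5. In normalized counts it had 17808 and 13989 at E9.5, against 6328 and 6943 at E7.5, a difference that did not pass (log2 fold change 1.25 ± 0.68 (SE), adjusted p = 0.240). The share and the normalized count thus give different impressions of 1 hairpin, and intervals cover counting error only. The 3' arm of mir-92a-1 is the same as that of mir-92a-2 on chromosome X, so reads of that arm cannot be assigned to either hairpin by sequence. Hairpins with the seed AUUGCAC, which miR-92a shares with miR-367, summed to 22488 and 18248 at E9.5, against 9069 and 11231 at E7.5. These sums pool both arms, and mir-367 itself was lower. The 8 most abundant hairpins at E9.5 were mir-92a-1, mir-92a-2, mir-335, mir-6236, mir-5099, mir-30d, mir-30a and mir-423. Being chosen on E9.5 levels, they took more of the E9.5 reads, 58.7% and 56.8%, against 21.8% and 21.0% at E7.5. The 8 most abundant at E7.5 were mir-92a-1, mir-302b, mir-92a-2, mir-21a, mir-302d, mir-182, mir-183 and mir-292a, and 2 hairpins, both miR-92a, stood in both sets. These 8 took 49.97% and 44.8% of reads at E9.5, against 31.1% and 44.3% at E7.5. Most of that E9.5 share was mir-92a-1, given above, and mir-92a-2, with 8.52% and 8.89% at E9.5, against 3.39% and 5.24% at E7.5. Each of the others took a smaller share in both E9.5 libraries than in either E7.5 library. The entries mir-6236 and mir-5099 are atypical hairpins whose standing as miRNAs is uncertain.

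Among lists for other cell types that an embryo or a sort could hold, the epithelial (3 of 5), mesenchymal (2 of 5) and Sfmbt2 (13 of 13) lists had the calls given above. The others had none. Of 7 neural hairpins 0 passed (median -0.04). The 16 of that list in the table summed to 209.9 and 316 at E9.5, against 364 and 202 at E7.5. Of 5 endoderm and liver hairpins 0 passed (median 0.22), of 3 vascular hairpins 0 passed (median -1.90), and the 1 muscle hairpin did not pass. The blood list had 0 of its hairpins among the 231 and summed over the table to 8.38 and 9.36 at E9.5, against 11.96 and 15.005 at E7.5. The mesenchymal list, at 1779 and 1630.5 in E9.5 Sox10 cells, and the vascular list, at 200.0 and 159 there and 952 and 208 in E7.5 embryos, were not at 0 in the sorted cells, and their part in the other results was not tested. No list here defines neural crest, so the Sox10 label could be set only against markers of other cells, while the E7.5 label stood beside high miR-290-295 and miR-302 values. Of the remaining families, miR-30 (0 of 5), miR-181 (0 of 5), miR-15/16 (0 of 4), miR-322 with miR-503 (0 of 7), miR-130 with miR-301 (0 of 3), miR-23/27/24 (0 of 3) and miR-99/100 with miR-125 (0 of 6) had no call, nor did the 4 often-used reference miRNAs (median 0.19). In these lists an unadjusted p under 0.05 was reached by 2 hairpins of miR-99/100 with miR-125 and by 1 each of the vascular, miR-130 with miR-301 and miR-23/27/24 lists, and edgeR called 1, mir-100, which it gave as higher. The miR-181 median was 0.05 with all libraries, 1.58 without E7.5 WT replicate 1 and -1.52 without replicate 2. The vascular median, which includes mir-143, was -0.74 and -2.26 on the same omissions. A missed threshold with 2 libraries a group does not show that levels of uncalled hairpins were alike.

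The 3 E8.5 WT libraries of Wnt1-Cre cells lay between both stages for 36 of the 49 lower hairpins and 5 of the 8 higher ones, going by means. These hairpins were called for a gap between E7.5 and E9.5, and the share among uncalled hairpins was not counted. The counts therefore do not show a graded course. The lists took different courses. For the Sfmbt2 list the E7.5 sums were 1735 and 1531, the E8.5 sums 33.1, 27.8 and 40.9 and the E9.5 sums 29.1 and 15.6, so that most of its difference lay before E8.5. For the miR-302 cluster the E7.5 sums were 4042 and 14324, the E8.5 sums 6026, 3884 and 6539 and the E9.5 sums 339.9 and 468, with 2 of the 3 E8.5 values inside the E7.5 range and the other just under it. For the mesenchymal list the E7.5 sums were 184 and 73.9, the E8.5 sums 127, 155 and 82.6 and the E9.5 sums 1779 and 1630.5, again a difference between E8.5 and E9.5. In contrast mir-335 was already at 1117, 1225 and 1262 at E8.5. The let-7 and Hox lists were lowest at E8.5, as the plot of the 3 stages shows. These intermediate values are a description, and each step was also a change of cell source.

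**Figure D4:**
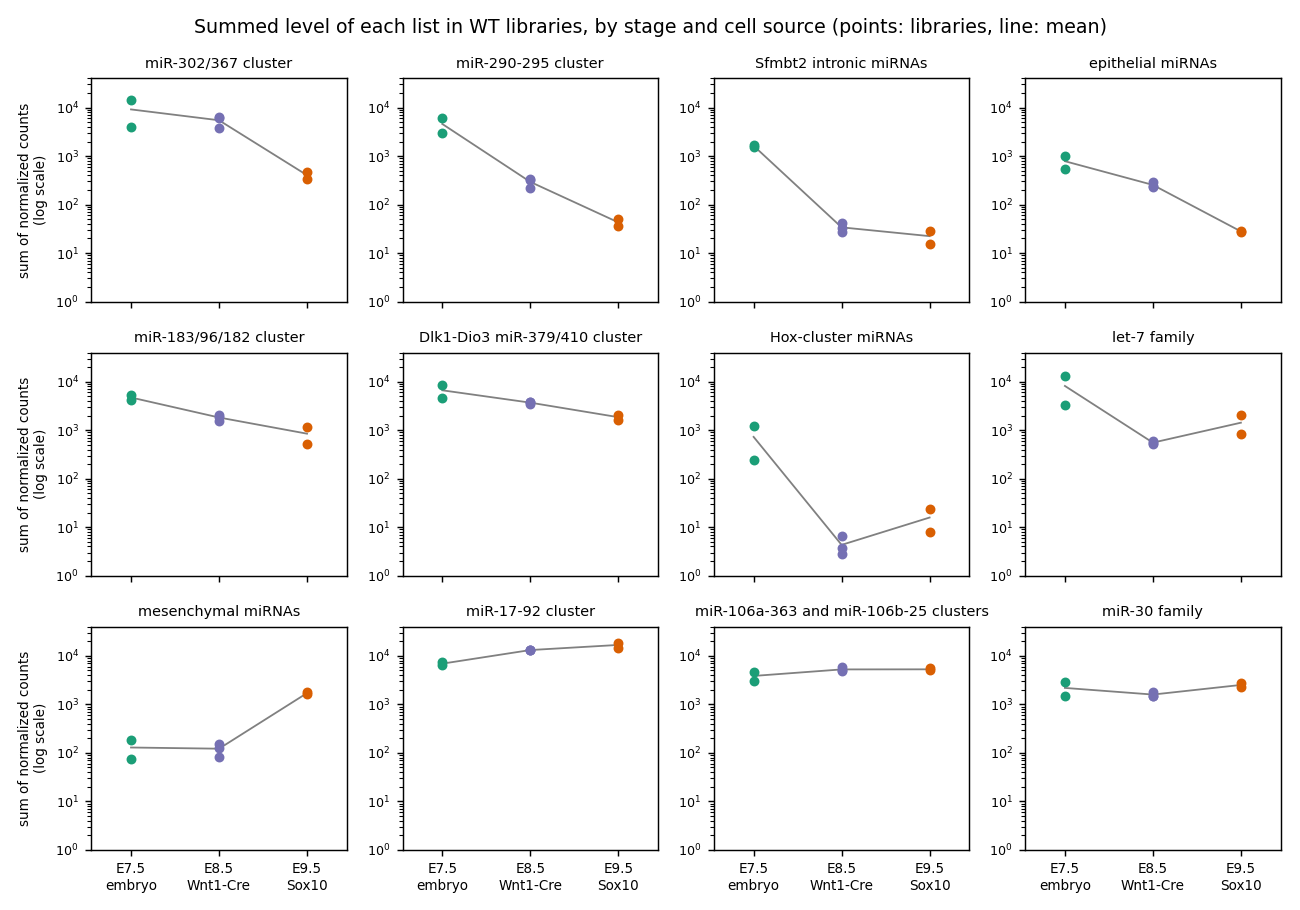
Sum of normalized counts of 12 lists in each WT library, on a log scale, at E7.5 (whole embryo), E8.5 (Wnt1-Cre cells) and E9.5 (Sox10 cells); points are libraries and the line joins the means. The Sfmbt2 sums are low from E8.5 on, the miR-302 sums at E9.5, and the mesenchymal sums are high at E9.5.

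The miR-302 KO samples gave a separate set of libraries for the same step, E9.5 KO Sox10 cells against E7.5 KO embryos, fitted in the same model. The 4 targeted mir-302 hairpins had sums of 148 and 75.4 normalized counts at E9.5 KO, against 338 and 466 at E9.5 WT, and of 31.0 and 13.2 at E7.5 KO, against 4001 and 14226 at E7.5 WT. The E9.5 KO libraries thus kept some signal. Of the 49 hairpins lower in WT, 34 (69.4%) were also called lower in KO, where 18.4% of all tested hairpins were, and 0 were called higher. Outside the miR-302 cluster it was 33 of 44. Of the 49, 31 were under 10 in both E9.5 WT libraries, so all tested hairpins are not a like background for this share. Of the 8 higher in WT, all 8 lay above 0 in KO and 4 (50%) were called higher, where 12% of all tested hairpins were. In KO libraries mir-335 had 992 and 647 at E9.5, against 16.7 and 164 at E7.5 (log2 fold change 3.89, adjusted p = 0.00164). The whole miR-290-295 cluster was lower there too, with sums of 27.9 and 2.90 at E9.5 KO, against 8271 and 3834 at E7.5 KO, as were 8 of the 13 Sfmbt2 hairpins. For let-7 the KO sums were 8029 and 14010.5 at E9.5, against 1571 and 7448 at E7.5, with 0 of 12 hairpins called by limma in KO and 0 in the difference between the genotypes.

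The WT and KO stage changes differed for 5 hairpins, which is 1.67% of those tested and all among the 231: mir-302a, mir-302b, mir-302d, mir-200c and mir-871. The first 3 are among the targeted hairpins, which KO libraries nearly lacked at E7.5, so for them the test could hardly come out otherwise. In KO libraries mir-200c had 57.2 and 31.9 normalized counts at E9.5, against 109.6 and 129 at E7.5, a log2 fold change of -1.46, where it was -5.92 in WT (difference -4.46 ± 0.79 SE, adjusted p = 0.0101). For mir-871 the KO values were 7.34 and 31.9 at E9.5, against 16.7 and 19.7 at E7.5, and overlapped (WT minus KO difference -5.00 ± 0.87 SE, adjusted p = 0.0101). The E9.5 KO libraries stood apart in other hairpins too. Their endoderm and liver sums were 763 and 2361, against 152 and 326 in E9.5 WT. Their neural sums were 782 and 1645, against 209.9 and 316 in E9.5 WT, and mir-6236 took 11.4% and 12.7% of their reads, against 1.33% and 4.33% in E9.5 WT. On the E7.5 side, mir-182 took 18.3% of reads in KO replicate 1, against 9.11% in KO replicate 2 and 3.29% and 3.97% in WT. In the same KO replicate 1 mir-92a-1 took 1.12%, against 9.62% in KO replicate 2 and 9.11% and 9.96% in WT. The part of all these in the differences between genotypes was not tested. The KO libraries were shallower, at 24184 to 52362 reads, so that 1 read was worth up to 2.90 normalized counts. Under TMM scaling 1 of the 5 differences remained past the threshold, mir-871, and without E7.5 WT replicate 2 none did, with 0 of the 299 past it by limma (52 at an unadjusted p under 0.05).

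**Figure D5:**
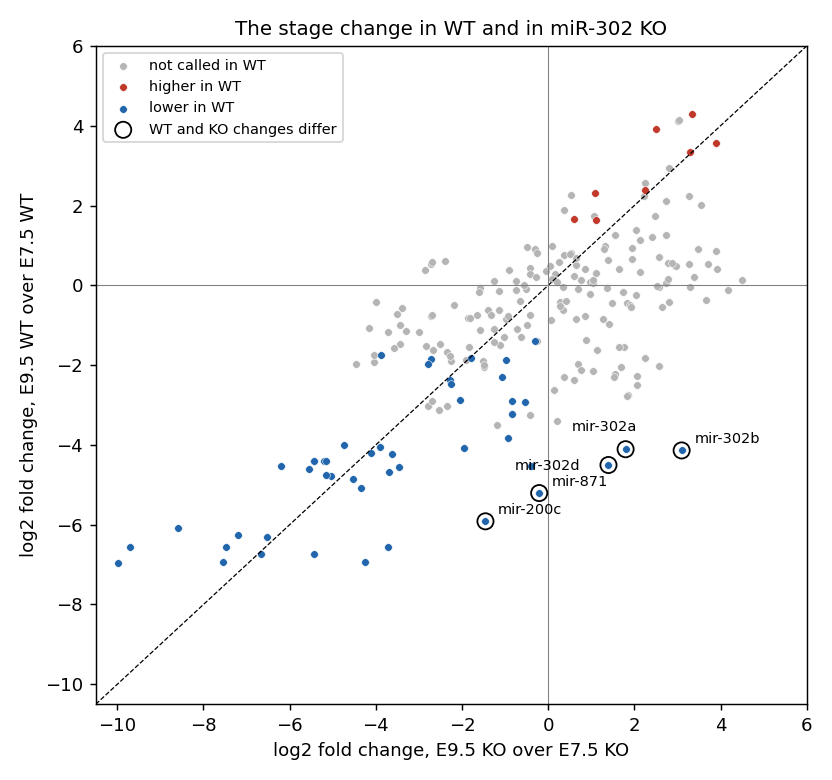
Log2 fold change of the 231 hairpins, E9.5 Sox10 cells over E7.5 embryos, in WT (vertical) against miR-302 KO (horizontal), with the line of equal values dashed. Red and blue points were called higher and lower in WT, and rings mark the 5 hairpins whose changes differed between the genotypes, all of them below the line.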

How the data were processed

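Small RNA libraries came from total RNA (NEXTflex Small RNA-Seq v3 kit, gel size selection), per the labels' protocols. The submitters' processing notes name FastQC 0.11.5, STAR 2.7.0f and the mm10 build. The counting tool is not given in the sources used here. What the authors deposited is a signal, a table of normalized counts per hairpin, in which the authors divided reads by 1 factor per library. All 6086 values above 0 (100%) were whole multiples of 1 read within 0.001, so depth could be recovered. It was 133638 to 323389 reads in the 4 libraries compared and 1706 to 179772 in the other 11. In the deposited sheets 1 further column of values matched no sample and was not used.

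Hairpins were tested two-sided with limma 3.58.1 (R 4.3.3; eBayes with a trend on mean level) on log2(normalized count + 1), with all 15 libraries and 6 group means, since 2 libraries a group alone give little information on spread. Those with 10 or more normalized counts in 2 or more of the 15 libraries were tested, and p-values were adjusted over 299 hairpins (Benjamini-Hochberg, threshold 0.05). Fold changes on this scale understate the change of hairpins near 0. On the recovered reads edgeR 4.0.16 called 21 hairpins higher and 51 lower, and DESeq2 1.42.0 called 22 higher and 75 lower. The chi-square per degree of freedom between replicates was 53.9 for E9.5 WT and 246 for E7.5 WT, so each library counted as 1 sample. Of the 231 hairpins, 47 belong to 23 families of numbered copies that share reads.

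Hairpins were named if they were among the 12 highest or lowest log2 fold changes called without overlap and with a mean of at least 100 in the higher group, among up to 4 per list by mean, among the 8 most abundant of a group, or called in the WT against KO difference. Others, such as mir-149, mir-155, mir-146b, mir-3475 and the chromosome X and mir-297 hairpins, were chosen after their values were seen. The members and the 27 lists were chosen with earlier results of these data known. Sequences and positions come from RefSeq (GRCm38.p6, which shares its coordinates with mm10), where 230 of 231 hairpins matched a gene, and gene context from GENCODE vM21.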

Additional observations from a re-analysis of the deposited data

Results flagged for a closer look

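For 5 hairpins the stage difference of WT libraries was not that of KO libraries, by the test of the difference itself in limma. Each difference is the log2 fold change of WT minus that of KO, and all 5 are negative. It was -7.24 ± 1.58 (SE) for mir-302b (adjusted p = 0.0276), -5.90 ± 1.25 for mir-302a (adjusted p = 0.0252) and -5.90 ± 1.13 for mir-302d (adjusted p = 0.0136), which are hairpins that the knockout targets. It was -4.46 ± 0.79 for mir-200c (adjusted p = 0.0101), whose log2 fold change was -5.92 in WT and -1.46 in KO, below 0 in both genotypes. For mir-871 it was -5.00 ± 0.87 (adjusted p = 0.0101), with -5.21 in WT and -0.21 in KO. Without a filter on low values mir-302b had an adjusted p of 0.0623 for the difference, and without E7.5 WT replicate 2 none of the 5 passed (0.0559 to 0.146). The outcomes in E9.5 KO libraries rest on 39667 and 24184 reads, and their part in these differences was not tested.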

How the results depend on the processing

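Of 2190 values of the 100 named hairpins under the alternatives, 2012 stayed on their side of the threshold, 94 lost and 84 gained a call, and 0 reversed. Of the 57 called hairpins, 28 kept their call under every alternative run that tested them (27 lower and mir-335 higher). The 9 higher hairpins of all tested became 16 with TMM scaling, 19 with TMM without the miR-302 and miR-290-295 lists, 5 with no filter, 24 with WT libraries only, 21 with edgeR and 22 with DESeq2, and 1 to 11 when 1 library was left out. The 53 lower ones became 35 with a minimum of 50 and 95 with WT libraries only, and 38 to 56 when 1 library was left out. Higher and lower calls stood at 11 and 42 with library-sum scaling and at 19 and 40 with TMM without both lists. In KO the 91 calls (36 higher, 55 lower) became 57 with a minimum of 50, 33 with only the libraries compared and 43 to 98 when 1 library was left out, and with TMM scaling 19 were higher and 55 lower. The 5 differences between genotypes became 1 with each of TMM, library-sum, TMM without both lists and only the libraries compared, 9 with no filter, 15 with a pseudocount of 10 and 0 to 23 when 1 library was left out (0 without E7.5 WT replicate 2). No cause was tested. Leaving out an E9.5 WT library kept 1 or 2 of the 8 higher hairpins and 41 or 35 of the 49 lower. With a replicate block 9 were higher and 49 lower, and 102 were called in KO and 4 in the difference. Deviations of same-numbered WT libraries from their group means were weakly and negatively correlated over hairpins (r = -0.266, and 0.0406 in KO), a sign that depends on the replicate numbering. A replicate block with E7.5 WT numbers crossed, chosen after seeing the data, gave 9, 50, 108 and 4. Depth limits hairpins with few E9.5 reads, where the floor of 3 reads is 0.300 normalized counts.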

Other observations

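The abundant but atypical entries mir-6236 and mir-5099 were not called. The mir-6236 hairpin had 633 and 1847 normalized counts in E9.5 Sox10 cells, against 2309 and 910.2 in E7.5 embryos (log2 fold change -0.42 ± 0.74 (SE), adjusted p = 0.772). For mir-5099 the values were 980.3 and 1149 at E9.5, against 1065 and 1181 at E7.5 (-0.08 ± 0.78 (SE) with an adjusted p of 0.970). Next to the threshold stood mir-20a, of the miR-17-92 cluster, with 309 and 299.8 at E9.5, against 34.3 and 119 at E7.5, and an adjusted p of 0.0546. In KO 19 of the 231 hairpins were called higher at E9.5 that were not called in WT, which alone does not show that the genotypes differ there.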
